A study of Arabidopsis thaliana with 12 samples.

Results

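Tubulins are the subunits of microtubules, and the tubulin genes described here are those that single probe sets of an Affymetrix ATH1 array measured in Arabidopsis thaliana rosettes. They were chosen by name: a probe set was taken where the array's annotation gave it to 1 gene whose symbol was TUA (alpha tubulin) or TUB (beta tubulin) followed by digits only. The rule found 7 probe sets among 22746 that are not controls, 2 for alpha and 5 for beta tubulins. They stood for 7 of the 15 alpha and beta tubulin genes that the TAIR10.1 gene table names, of which 6 are alpha and 9 are beta. The alpha tubulins were TUA1 (AT1G64740, probe set 262885_at) and TUA6 (AT4G14960, probe set 245270_at). The beta tubulins were TUB1 (AT1G75780, probe set 262978_at), TUB5 (AT1G20010, probe set 261230_at), TUB6 (AT5G12250, probe set 250317_at), TUB7 (AT2G29550, probe set 266295_at) and TUB9 (AT4G20890, probe set 254446_at). A further probe set was listed for TUA5 and TUA3 together and was not a member, and the other tubulin genes were not analysed here.

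The 12 arrays fell into 6 groups of 2 biological replicates: atx1, MYO-OX and wild type, each under water deficit and each watered. All plants were 4 weeks old when treatment began, and water was withheld in the deficit groups until the relative water content was 65%. The wild type was Columbia-0. The atx1 line is a mutant of ATX1 (ARABIDOPSIS TRITHORAX 1), a histone methyltransferase of chromatin, and MYO-OX carries in its name the overexpression of MYO1, a myotubularin-like phosphoinositide phosphatase. The accession of the atx1 and MYO-OX lines, the promoter behind the overexpression and the number of plants per array are not given in the sources used here, so a difference of accession and an effect of the genotype cannot be told apart. Levels are log2 signals, changes are log2 differences with the standard error (SE) of the limma model, and a change was called at a Benjamini-Hochberg adjusted p under 0.05 over all 22746 probe sets.

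Alpha and beta tubulin form the heterodimer that polymerises into microtubules. In growing leaf cells the microtubules beneath the plasma membrane guide the movement of cellulose synthase complexes and so the direction of cell expansion, and in dividing cells they build the preprophase band, the spindle and the phragmoplast. Plant tubulins are encoded by small gene families whose members have almost the same protein sequence and differ in where they are expressed. The sequences of the probes were not used here, so whether a probe set also detected a close relative of its gene was not tested. In RNA from whole rosettes, fewer cells of a type and less RNA per cell cannot be told apart.

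The arrays carried leaf RNA by the markers that could be read. A marker or listed gene counted as measured where its symbol or synonym matched a probe set of its own in the annotation. Whether the array carries the others under another name was not examined. RCA, for rubisco activase of photosynthetic cells, was the 1 measured gene of 14 mesophyll markers sought, and 99.4% to 99.9% of probe sets lay at or below it in the 6 groups. The measured root epidermis genes EXPA7 and EXPA18 had 21.8% to 34.3% of probe sets at or below them, and the pollen genes ACT12 and ANX1 had 15% to 23.5%. TUA1, a tubulin described here that was also on the pollen list, went the other way, with 73.4% to 89.1%. The GAPDH 3' control signal minus its 5' counterpart, a measure of RNA integrity and labelling, was 1.74 and 1.19 on the atx1 arrays under water deficit, and 0.44 to 1.09 on the other 10 arrays. Spiked hybridization controls averaged 10.03 and 9.66 on the atx1 arrays under water deficit, against 8.85 and 8.42 on the wild-type arrays under water deficit.

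**Figure D1:**
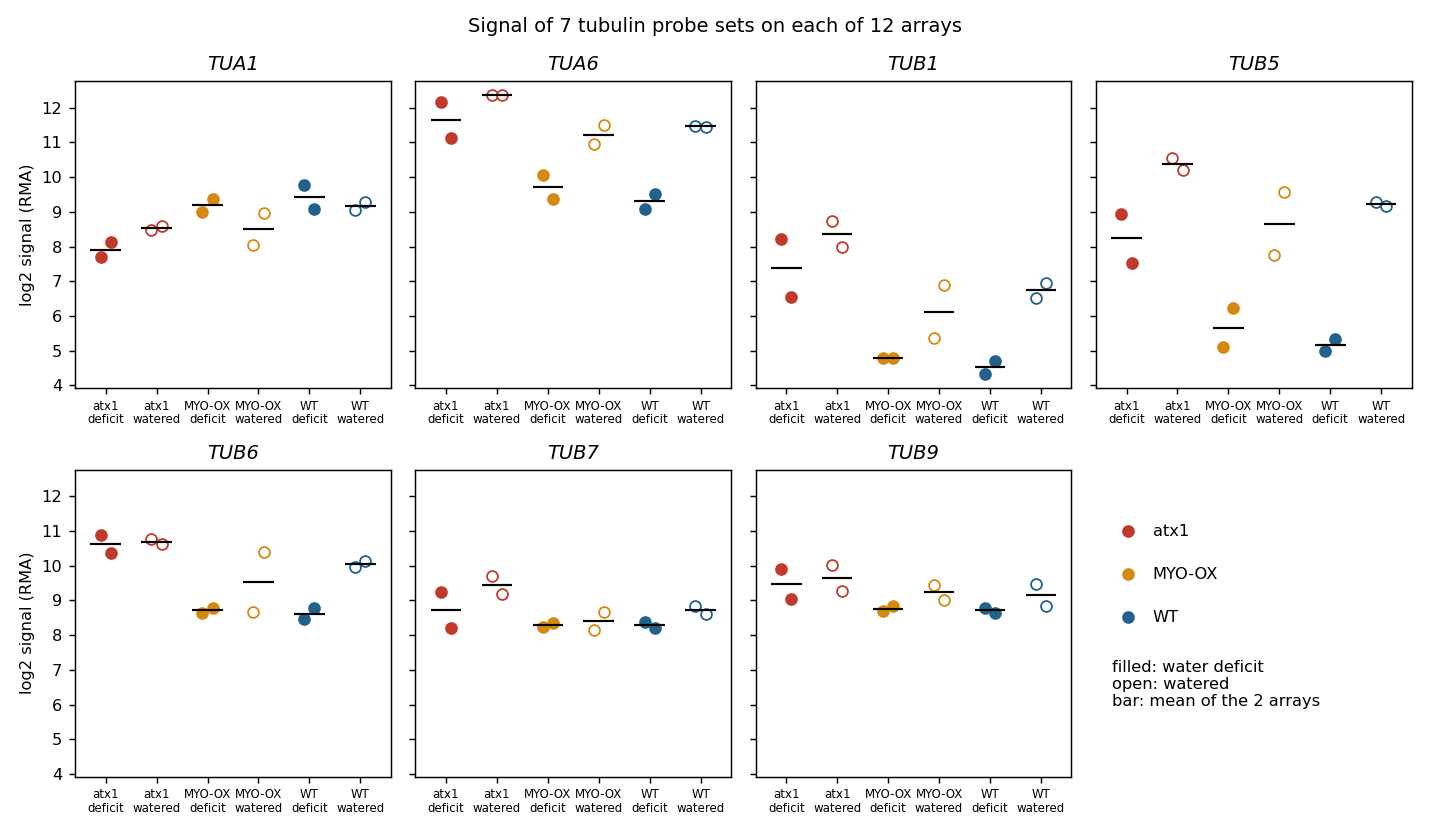
Log2 signal (vertical axis) of each tubulin probe set on each of 12 arrays, by genotype and water state (horizontal axis). Each point is 1 array, filled under water deficit and open when watered, and the bar is the mean of the 2 arrays. TUB5 spans the widest range, from 4.99 to 10.56, and TUA1 is the gene whose lowest group is atx1 under water deficit.

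In wild-type rosettes, the question was how tubulin signals responded when water was withheld. The alpha tubulin TUA6 and the beta tubulins TUB5 and TUB1 fell, by 4.45-fold, 16.8-fold and 4.65-fold. TUB6, TUB7, TUB9 and TUA1 did not pass the test. No tubulin rose. In the limma model 3 of 7 tubulins were called lower and 0 higher, against 10.7% of all probe sets called lower and 8.96% higher, and the median change was -1.44 over the tubulins and 0.01 over all probe sets tested.

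TUA6, an alpha tubulin much used as a fluorescent fusion to image microtubules, had 9.09 and 9.52 in wild type under water deficit, against 11.48 and 11.43 in watered wild type (change -2.15, SE 0.37, limma adjusted p = 0.00555). TUB5 had 4.99 and 5.33 in wild type under water deficit, against 9.28 and 9.17 in watered wild type (change -4.07, SE 0.65, limma adjusted p = 0.00393). TUB1, a beta tubulin known for high expression in roots, had 4.33 and 4.71 in wild type under water deficit, against 6.52 and 6.95 when watered (change -2.22, SE 0.61, limma adjusted p = 0.0369). The 2 groups did not overlap in any of these 3 genes, and the gap was widest in TUB5. On average in stressed wild type, TUB5 had 40.2% of probe sets at or below its level and TUB1 had 30.6%. Whether signals that low exceed background was not measured, so the size of these falls is uncertain.

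TUB6 had 8.47 and 8.78 in wild type under water deficit, against 9.97 and 10.15 in watered wild type, a change of -1.44 (SE 0.47) that missed the threshold (limma adjusted p = 0.0664). TUB7 had a change of -0.43 and TUB9 of -0.43, with limma adjusted p = 0.488 and adjusted p = 0.512. The deficit arrays lay below the watered arrays in these 3 genes too, so that 6 of 7 tubulins had groups that did not overlap in the lower direction, against 33% of all probe sets. TUA1, an alpha tubulin known as the predominant alpha tubulin of pollen, had 9.76 and 9.08 under water deficit, against 9.04 and 9.27 when watered, and these groups overlapped (change 0.26, limma adjusted p = 0.717). The TUB5 call held under all 20 alternatives. TUB6 was called under 5 of them (limma adjusted p from 0.00288 to 0.0395). TUA6 was lost when replicate 1 of stressed wild type was left out (limma adjusted p = 0.0571), and TUB1 was lost without any 1 of the 4 wild-type arrays or of the 2 MYO-OX water-deficit arrays (adjusted p from 0.0593 to 0.203 in limma).

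In MYO-OX, TUA6 and TUB5 fell by 2.83-fold and 8.01-fold and the other 5 tubulins did not pass. The count of 2 of 7 lower stood against 14% of all probe sets called lower in MYO-OX, and 0 of 7 higher against 10.7%, and the median change was -0.82 over the tubulins and 0.04 over all probe sets. TUA6 had 10.07 and 9.36 in MYO-OX under water deficit, against 10.95 and 11.49 in watered MYO-OX (change -1.499, SE 0.37, limma adjusted p = 0.0216). TUB5 had 5.09 and 6.22 in MYO-OX under water deficit, against 7.75 and 9.57 in watered MYO-OX (change -3.00, SE 0.65, limma adjusted p = 0.0125). In both genes the groups did not overlap, and the watered arrays of TUB5 lay 1.82 apart. On average in stressed MYO-OX, TUB5 had 46.4% of probe sets at or below its level. Whether that signal exceeds background was not measured, so the size of the TUB5 fall is uncertain.

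The watered MYO-OX arrays differed from each other in most tubulins. TUB1 had 4.79 on both arrays of MYO-OX under water deficit, against 5.37 and 6.89 in watered MYO-OX (change -1.34, SE 0.61, limma adjusted p = 0.154). TUB6 had 8.65 and 8.78 under water deficit, against 8.67 and 10.39 when watered, so that its groups overlapped (change -0.82, limma adjusted p = 0.252). TUB7, TUB9 and TUA1 had differences of -0.12, -0.47 and 0.67, and none of these passed. Groups did not overlap in 4 of 7 tubulins in the lower direction, against 27.4% of all probe sets, and in TUA1 in the higher direction, against 29.4%. Replicate 1 of watered MYO-OX lay below replicate 2 in 6 of 7 tubulins, and its signal of RCA was also lower, at 10.81 against 13.72. Without that replicate TUB6 was called too (change -1.68, limma adjusted p = 0.00603). TUA6 was lost without watered replicate 2 (adjusted p = 0.0696) and without water-deficit replicate 2 (adjusted p = 0.131), TUB5 was lost without water-deficit replicate 1 (adjusted p = 0.0759), and neither was called with the 4 MYO-OX arrays alone (limma adjusted p = 0.106 and adjusted p = 0.109).

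**Figure D2:**
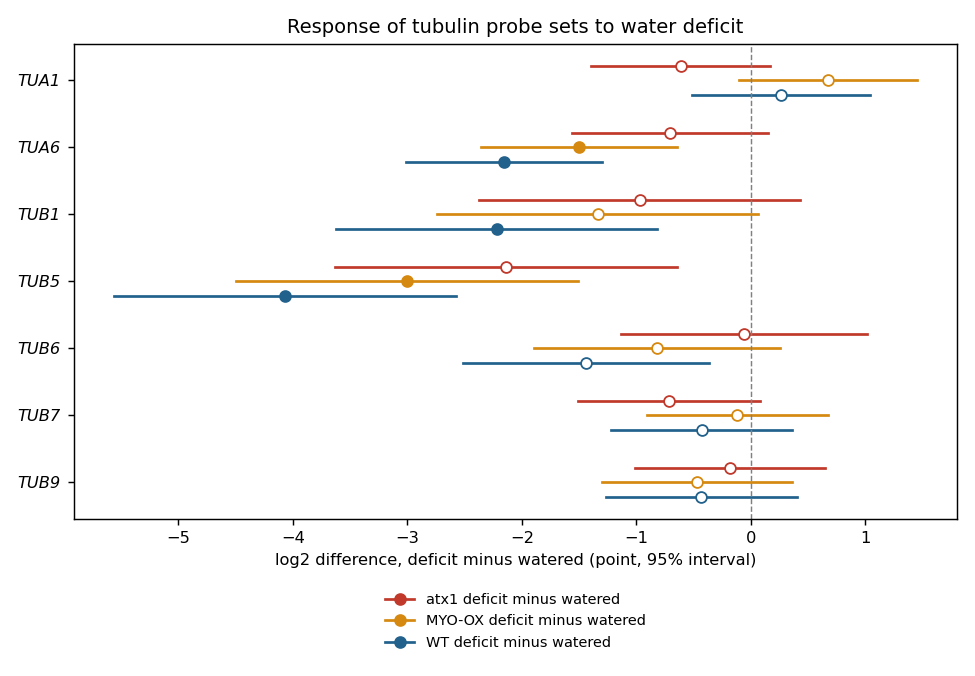
Log2 difference of water deficit minus watered (horizontal axis) for each tubulin in atx1, MYO-OX and wild type, from top to bottom. Points are limma estimates with their 95% intervals, and filled points had an adjusted p under 0.05. The filled points are TUA6, TUB1 and TUB5 in wild type and TUA6 and TUB5 in MYO-OX, and no point of atx1 is filled.

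In atx1 no tubulin passed the test of the response to water deficit. The limma count was 0 of 7 in either direction, against 1.09% of all probe sets called lower and 2.1% higher, and 1 of 7 tubulins had an unadjusted p under 0.05. The median change was -0.70 over the tubulins and -0.01 over all probe sets. TUB5 had 8.94 and 7.54 in atx1 under water deficit, against 10.56 and 10.20 in watered atx1 (change -2.14, SE 0.65, limma adjusted p = 0.14), and these groups did not overlap. TUA6 had 12.17 and 11.14 in atx1 under water deficit, against 12.36 and 12.35 in watered atx1 (change -0.70, SE 0.37, limma adjusted p = 0.438). TUB1 had 8.22 and 6.56 under water deficit, against 8.74 and 7.98 when watered, and the groups overlapped (change -0.97, limma adjusted p = 0.549).

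The other tubulins of atx1 did not pass either. TUB6 had 10.89 and 10.38 in atx1 under water deficit, against 10.76 and 10.62 in watered atx1 (change -0.06, limma adjusted p = 0.983). The changes of TUB7, TUB9 and TUA1 were -0.71, -0.18 and -0.61, with limma adjusted p = 0.382 for TUB7 as the smallest. In TUA1, TUA6 and TUB5, 3 of 7 tubulins, the deficit arrays lay below the watered arrays without overlap, against 23.6% of all probe sets. The atx1 arrays under water deficit lay 0.41 to 1.66 apart in single tubulins, and replicate 1, the array with the larger GAPDH difference, was the higher array in 6 of 7, TUA1 being the exception.

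Setting atx1 against wild type under water deficit asked how the mutant differed in stressed rosettes. The beta tubulins TUB5, TUB1 and TUB6 were 8.47-fold, 7.3-fold and 4.03-fold higher in atx1, and the alpha tubulin TUA6 was 5.1-fold higher. TUA1 was 2.84-fold lower, and TUB7 and TUB9 did not pass. In the limma model 4 of 7 tubulins were called higher and 1 lower in atx1, against 7.36% of all probe sets called higher and 4.73% lower. The median difference was 2.01 over the tubulins and 0.01 over all probe sets.

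TUB5 had 8.94 and 7.54 in atx1 under water deficit, against 4.99 and 5.33 in wild type under water deficit (difference 3.08, SE 0.65, limma adjusted p = 0.0207). TUB1 had 8.22 and 6.56 in atx1, against 4.33 and 4.71 in wild type (difference 2.87, SE 0.61, limma adjusted p = 0.0215). Every atx1 array lay at least 1.85 above every wild-type array in these 2 genes, whose wild-type levels were the dim ones named above. TUA6 had 12.17 and 11.14 in atx1, against 9.09 and 9.52 in wild type (difference 2.35, SE 0.37, limma adjusted p = 0.00688). TUB6 had 10.89 and 10.38 in atx1, against 8.47 and 8.78 in wild type (difference 2.01, SE 0.47, limma adjusted p = 0.0295). In all 4 the arrays of the 2 genotypes did not overlap.

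TUA1 ran the other way, with 7.71 and 8.12 in atx1 under water deficit, against 9.76 and 9.08 in wild type under water deficit (difference -1.505, SE 0.34, limma adjusted p = 0.0263). TUB9 had 9.90 and 9.04 in atx1, against 8.79 and 8.64 in wild type (difference 0.76, SE 0.36, limma adjusted p = 0.234). TUB7 had 9.25 and 8.20 in atx1, against 8.39 and 8.22 in wild type, and these groups overlapped (difference 0.42, limma adjusted p = 0.517). Groups did not overlap in 5 of 7 tubulins in the higher direction, against 32.9% of all probe sets, and in 1 of 7 in the lower direction, against 28.8%. The same 5 and the same 1 were separated when the atx1 arrays were set beside those of MYO-OX under water deficit, with 5.09 and 6.22 for TUB5 and 8.998 and 9.366 for TUA1 in MYO-OX. These shares were 29.1% and 27.3% of all probe sets, and no test was made of that pair.

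With the GAPDH 3'-5' difference as a covariate in limma, none of these 5 calls held. The differences were then 3.50 for TUB5, 2.72 for TUB1, 2.69 for TUB6, 1.98 for TUA6 and -0.66 for TUA1, with adjusted p values of 0.086, 0.138, 0.0609, 0.0826 and 0.312. They were larger in size than without the covariate for TUB5 and TUB6 and smaller for TUB1, TUA6 and TUA1. The GAPDH difference was 1.74 and 1.19 on the stressed atx1 arrays, against 0.56 and 0.58 on the stressed wild-type arrays. This covariate and the genotype therefore cannot be fully told apart in this comparison. TUB9, which was not called, had -0.25 with that covariate. With the hybridization controls as the covariate TUB1 and TUA1 were lost (limma adjusted p = 0.0672 and adjusted p = 0.132), and TUA6, TUB5 and TUB6 held. When replicate 1 of stressed wild type was left out no tubulin was called, with a limma adjusted p = 0.0756 for TUA6 and values of 0.15 to 0.204 for the other 4. Without atx1 water-deficit replicate 1 only TUA6 was called, and without wild-type water-deficit replicate 2 only TUA6 and TUA1 were. Without atx1 water-deficit replicate 2 the TUB6 call was lost (adjusted p = 0.0546).

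**Figure D3:**
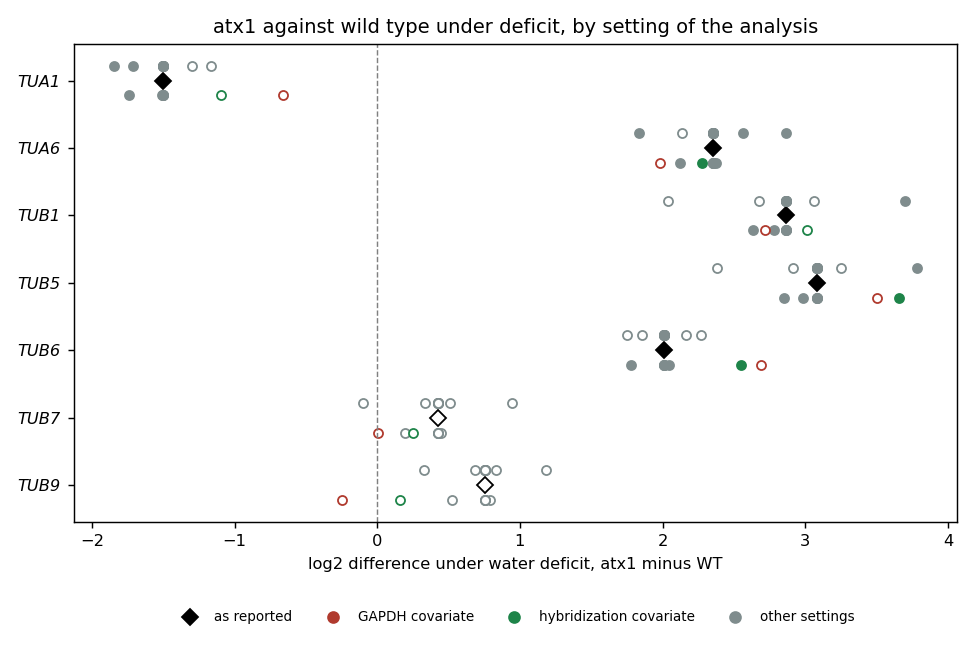
Log2 difference of atx1 minus wild type under water deficit (horizontal axis) for each tubulin under each setting of the analysis. Diamonds are the values as reported, filled symbols had an adjusted p under 0.05, points above each row leave out 1 array and points below it change another setting. TUB5 stays between 2.38 and 3.78 and TUA1 between -1.85 and -0.66, and the points with the GAPDH covariate are open in every row.

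**Figure D4:**
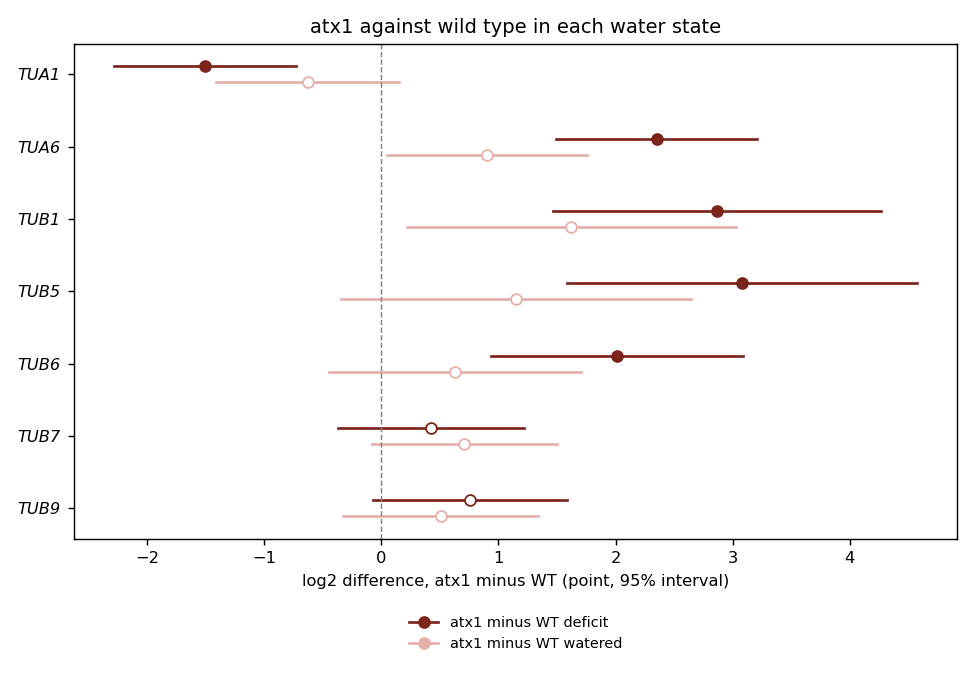
Log2 difference of atx1 minus wild type (horizontal axis) for each tubulin under water deficit (dark, upper point) and watered (light, lower point). Points are limma estimates with their 95% intervals, and filled points had an adjusted p under 0.05. The filled points are TUA1, TUA6, TUB1, TUB5 and TUB6 under water deficit, and no watered point is filled.

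In watered rosettes no tubulin passed between atx1 and wild type. The limma count was 0 of 7, against 1.2% of all probe sets called higher and 1.01% lower, and 2 of 7 tubulins had an unadjusted p under 0.05. TUB1 had 8.74 and 7.98 in watered atx1, against 6.52 and 6.95 in watered wild type (difference 1.62, SE 0.61, limma adjusted p = 0.299). TUA6 had 12.36 and 12.35 in watered atx1, against 11.48 and 11.43 in watered wild type (difference 0.90, SE 0.37, limma adjusted p = 0.361). TUB5 had 10.56 and 10.20 in watered atx1, against 9.28 and 9.17 in watered wild type (difference 1.15, limma adjusted p = 0.589). The 2 genotypes did not overlap in these 3 genes.

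The differences of TUB7, TUB6 and TUB9 were 0.71, 0.63 and 0.51 in watered plants and that of TUA1 was -0.63. The atx1 arrays lay above the wild-type arrays without overlap in 5 of 7 tubulins, against 23.6% of all probe sets, and below them in TUA1, against 19.4%. The signs were those of the comparison under water deficit in all 7 genes. The median difference was 0.71 over the tubulins and 0.04 over all probe sets.

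MYO-OX did not differ detectably from wild type in any tubulin. Limma called 0 of 7 tubulins in watered plants and 0 of 7 under water deficit, against 0% of all probe sets in each, and no tubulin had an unadjusted p under 0.05 in either. The largest differences in watered plants were -0.65 for TUA1 (95% interval -1.43 to 0.13) and -0.61 for TUB1 (95% interval -2.02 to 0.79). Under water deficit they were 0.50 for TUB5 (95% interval -0.99 to 1.99) and 0.41 for TUA6 (95% interval -0.44 to 1.27). The arrays of the 2 genotypes did not overlap in TUA1 when watered, lower in MYO-OX, against 11.4% of all probe sets, and in TUB1 under water deficit, higher in MYO-OX, against 13.7%. In at least 1 of the 2 water states the interval reached beyond 1 in size for every tubulin except TUB9. Without watered MYO-OX replicate 2, TUB6 was called lower in watered MYO-OX than in watered wild type (difference -1.39, limma adjusted p = 0.0483), and in that fit 157 of all probe sets were called higher and 253 lower, against 0 with all 12 arrays.

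The difference between the responses was tested as an interaction, and no tubulin passed. For the response of atx1 minus that of wild type, limma called 0 of 7 tubulins, against 0.176% of all probe sets, and TUA6 alone had an unadjusted p under 0.05 (1.45, 95% interval 0.24 to 2.66, limma adjusted p = 0.385). The values were 1.93 for TUB5 (95% interval -0.18 to 4.04), 1.38 for TUB6 (95% interval -0.14 to 2.90) and 1.25 for TUB1 (95% interval -0.74 to 3.23). TUA1 had -0.88 (95% interval -1.98 to 0.23), and TUB7 and TUB9 had -0.29 and 0.25. A smaller fall of the tubulins in atx1 than in wild type was therefore not shown for any single gene. For the response of MYO-OX minus that of wild type the count was also 0 of 7, against 0% of all probe sets, with 0 of 7 at an unadjusted p under 0.05 and values from -0.04 for TUB9 to 1.07 for TUB5. The responses share the arrays of the comparisons above and are no separate evidence.

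The 7 genes did not share 1 pattern. Over the 12 arrays, the 15 pairs among the 6 tubulins other than TUA1 had Pearson r between 0.64 and 0.96, with a median of 0.79. TUB1 and TUB6 were the most alike pair, and TUA6 and TUB1 followed with 0.95. The 6 pairs that hold TUA1 all had negative values, from -0.69 with TUB9 to -0.31 with TUB7. These values describe arrays that share their group, and no test was made of them. By size of range over the 12 arrays, TUB5 moved by 5.57, TUB1 by 4.41, TUA6 by 3.28, TUB6 by 2.42, TUA1 by 2.05, TUB7 by 1.53 and TUB9 by 1.39 on the log2 scale.

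The order of the 6 group means was close among 4 of the genes. In TUA6, TUB1, TUB5 and TUB6 watered atx1 was highest and wild type under water deficit lowest, with MYO-OX under water deficit next to it. In these 4 genes the difference between those lowest 2 groups, of 0.09 to 0.50, did not pass the test. In TUA6, TUB1 and TUB6 atx1 under water deficit stood second, above watered wild type and watered MYO-OX, and in TUB5 it stood below them. In TUA1 the order began with wild type under water deficit, at 9.76 and 9.08, and ended with atx1 under water deficit. In TUB7 and TUB9 the group means spanned 1.14 and 0.94, and no comparison of them passed.

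The genes whose levels ran most like each tubulin were sought among 918 probe sets that have 1 gene with a symbol and a mean at or above the median level of 6.17. For TUA6 they were FTSZ2-1, for a plastid division protein (r = 0.98), and TSO1, for a nuclear protein needed in floral cell division (r = 0.97). For TUB1 they were GH9B13, of a glycosyl hydrolase family that includes cellulases (r = 0.96), and FTSZ2-1 (r = 0.95). For TUB5 they were HCF101, for a plastid factor of iron-sulfur cluster assembly (r = 0.98), and BGLU44, for a beta-glucosidase (r = 0.97). For TUB6 they were RAP, for a plastid RNA-binding protein (r = 0.96), and PORB, for a protochlorophyllide reductase of chlorophyll synthesis (r = 0.95). For TUB7 they were AUR1, for a mitotic Aurora kinase (r = 0.86), and MAB1, for a subunit of mitochondrial pyruvate dehydrogenase (r = 0.85). For TUB9 they were the plastid ribosomal gene rps15 and the histone gene HTB1 (r = 0.94 for each). For TUA1 they were UBA1A, for an RNA-binding protein (r = 0.90), and ALDH2C4, for an aldehyde dehydrogenase (r = 0.89). Each value is over 12 arrays and is a description.

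Other genes of microtubules and of the processes they serve were read from 5 lists with 265 symbols. Of these, 16 genes were matched by symbol or synonym to a probe set of their own, and the array may carry others that were not matched. In wild type 6 of the 16 fell under water deficit and 0 rose, with a median of -0.60. Of all probe sets, 10.7% were called lower and 8.96% higher there. In MYO-OX 6 fell and 0 rose, against 14% of all probe sets called lower and 10.7% higher, with a median of -0.76. In atx1 limma called 0 of the 16, against 1.09% of all probe sets called lower and 2.1% higher. The median in atx1 was -0.17, and 2 of the 16 had an unadjusted p under 0.05. With so few probe sets called in atx1, a count of 0 of the 16 does not show a lost response. The difference between the atx1 and the wild-type responses was called for 0 of the 16, against 0.176% of all probe sets. In that test 4 had an unadjusted p under 0.05.

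Among the 8 measured genes of microtubule-associated proteins, 4 fell in wild type and 3 fell in MYO-OX, against 10.7% and 14% of all probe sets. MAP65-6, of a family that bundles microtubules, fell by 2.19 (limma adjusted p = 0.015) and SP1L3, a relative of SPR1, by 2.11 (limma adjusted p = 0.0048) in wild type. SPR1, for a protein that binds growing microtubule ends and keeps organ growth straight, fell by 1.01 in wild type (limma adjusted p = 0.0374), a call that held in 12 of 20 alternatives. WDL3, for a microtubule-stabilising protein, fell there by 0.89 (limma adjusted p = 0.0465), a call that held in 7 of 20 alternatives. In MYO-OX SP1L3 fell by 1.91, WDL3 by 1.09 and SPR1 by 1.06, while MAP65-6 had a change of -1.49 (limma adjusted p = 0.0554). None of the 8 passed in atx1, against 1.09% of all probe sets called lower and 2.1% higher. In atx1 MAP65-6 had a change of -0.08 and SP1L3 of -0.27. SP1L2, SP1L4, SP1L5 and TON1B, whose product helps form the preprophase band, did not pass in any genotype.

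Between atx1 and wild type under water deficit, the 4 called genes of these 16 were MAP65-6, SP1L3, SPR1 and WDL3, all higher in atx1. Over all probe sets 7.36% were called higher and 4.73% lower in that comparison. MAP65-6 averaged 8.60 in atx1 and 6.13 in wild type (difference 2.47, limma adjusted p = 0.0158). SP1L3 averaged 10.28 in atx1 and 7.90 in wild type (difference 2.37, limma adjusted p = 0.00544). WDL3 averaged 7.65 in atx1 and 4.93 in wild type, where 37.3% of probe sets were no brighter (difference 2.72, limma adjusted p = 0.000917) and was also higher in watered atx1 than in watered wild type (difference 1.48, limma adjusted p = 0.0279), a call that held in 13 of 20 alternatives. With the GAPDH covariate MAP65-6 and WDL3 held (limma adjusted p = 0.0373 and adjusted p = 0.0156), and SP1L3 and SPR1 did not (limma adjusted p = 0.0532 and adjusted p = 0.217).

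The remaining lists were thinly covered. ACT11, an actin gene known from reproductive tissue, fell by 2.65 in wild type (limma adjusted p = 0.00556) and by 1.63 in MYO-OX (limma adjusted p = 0.0342). The MYO-OX call held in 12 of 20 alternatives. ACT11 averaged 4.72 in stressed wild type and 4.58 in stressed MYO-OX, where 34% and 30.3% of probe sets were no brighter. The size of these falls is therefore uncertain. ACT12 and ARPC5, for a subunit of the complex that branches actin filaments, did not pass. COB, for the cell-surface protein COBRA that orients cellulose deposition, fell by 1.497 in wild type (limma adjusted p = 0.0258) and by 1.41 in MYO-OX (limma adjusted p = 0.0275). Of the tubulin folding cofactors, POR fell by 1.46 in MYO-OX (limma adjusted p = 0.0104) and had -0.81 in wild type (limma adjusted p = 0.103), and PFI did not pass. POR averaged 4.93 in stressed MYO-OX, where 36.4% of probe sets were no brighter, so the size of its fall is uncertain too. The kinesin genes KINESIN-13A and PAKRP1L did not pass in any response. Leaving out replicate 1 of stressed wild type left 0 calls among the 16 genes in wild type, and leaving out replicate 2 of stressed MYO-OX left 1 in MYO-OX.

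**Figure D5:**
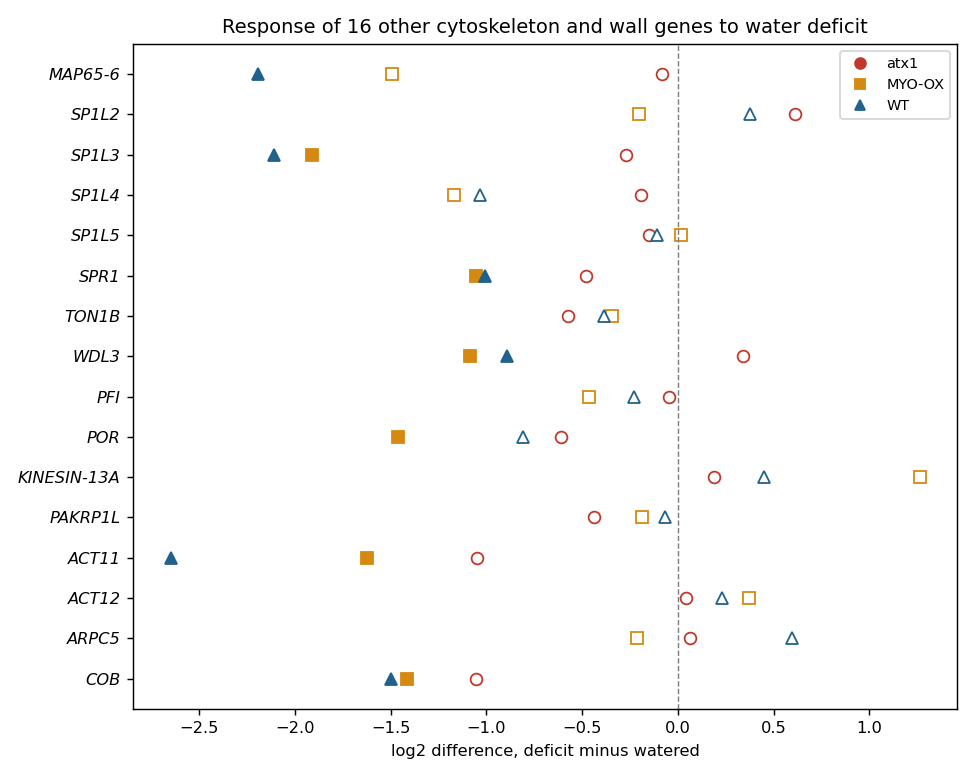
Log2 difference of water deficit minus watered (horizontal axis) for 16 genes of microtubule-associated proteins, tubulin folding, kinesins, actin and cellulose deposition in atx1 (circles), MYO-OX (squares) and wild type (triangles). Filled symbols had a limma adjusted p under 0.05. No atx1 circle is filled, and the filled symbols of the other genotypes all lie below 0.

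Of 12 markers of dividing cells sought, AUR1, AUR2 and TOPII were measured, and their mean log2 level was 6.96 and 5.95 in atx1 under water deficit, against 5.36 and 5.35 in wild type under water deficit. It was 7.41 and 7.20 in watered atx1, against 6.11 and 5.69 in watered wild type. TOPII, for the DNA topoisomerase of chromosome segregation, was the 1 of the 3 called, higher in atx1 when watered (difference 2.18, limma adjusted p = 0.0295) and under water deficit (difference 1.62, limma adjusted p = 0.0331), while AUR1 and AUR2 did not pass. In stressed plants TOPII averaged 5.66 in atx1 and 4.05 in wild type, where 18.6% of probe sets were no brighter, so the size of that difference is uncertain. In watered wild type TOPII averaged 4.67, where 32.6% of probe sets were no brighter, so the size of the watered difference is uncertain too. Each TOPII call held in 11 of 19 alternatives. Under water deficit the TOPII call was lost with the GAPDH covariate (limma adjusted p = 0.0887), without replicate 1 or 2 of stressed wild type (limma adjusted p = 0.194 and adjusted p = 0.113), without replicate 1 of stressed atx1 (limma adjusted p = 0.201), and without any 1 array of watered wild type or stressed MYO-OX (limma adjusted p from 0.053 to 0.0537). When watered, the TOPII call was lost with only the arrays of the comparison (limma adjusted p = 0.102). It was also lost without either watered wild-type array, watered atx1 replicate 2, or any 1 array of stressed wild type or stressed MYO-OX. IRX10, for a xylan synthase of secondary walls, the 1 measured gene of 11 xylem markers sought, was higher in atx1 under water deficit (difference 1.60, limma adjusted p = 0.0146), a call lost with the GAPDH covariate (limma adjusted p = 0.129), with the hybridization covariate (limma adjusted p = 0.0737), without replicate 1 or 2 of stressed wild type (limma adjusted p = 0.125 and adjusted p = 0.0521) and without replicate 1 of stressed atx1 (limma adjusted p = 0.0891). The part of these genes and of the GAPDH and hybridization controls in the tubulin differences was not tested beyond the covariates given here. Under water deficit both kinds of control were higher on both atx1 arrays than on both wild-type arrays, so these covariates and the genotype cannot be fully told apart.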

How the data were processed

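RNA from rosettes was measured on 12 arrays. The authors deposited log2 signals in 1 table, computed with RMA per the submitters' processing notes; no version of it is listed in the sources used here. The 64 control probe sets among 22810 were set apart. Names came from the array's annotation and loci from the TAIR10.1 gene table. Array number limits the precision, and the labels do not say from how many plants a replicate came.

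A limma 3.58.1 model in R 4.3.3 with 1 mean per group was fitted to 22746 probe sets on all 12 arrays, with 6 residual and 2.34 prior degrees of freedom. It gave 9 two-sided comparisons, each adjusted by the Benjamini-Hochberg method. The procedure was tested on simulated arrays with independent noise, so that test does not cover a batch shared between arrays. Every tubulin of the rule was named, with the 2 genes most like each by Pearson r and the called members of 5 lists. The members, lists, markers and tests were chosen with earlier results of these data known. The closing section gives the 20 alternatives.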

Additional observations from a re-analysis of the deposited data

How the results depend on the processing

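Alternatives were a replicate block, arrays centred on their medians, a further quantile normalization, a filter on the dimmest 40% of probe sets, a robust prior that follows intensity, a fit to the compared arrays alone, a covariate for the hybridization or the GAPDH controls, and each of 12 arrays left out. Of 360 recomputed counts of called tubulins, 344 stayed within 1.5 times and 16 moved, and of 1260 recomputed single changes no called one reversed, 32 lost their call and 9 gained one. The replicate numbers were not taken as pairs in the main model. The difference of replicate 2 minus replicate 1 correlated between -0.29 and 0.56 from group to group, above 0.1 in 9 of 15 pairs of groups. It correlated between 0.51 and 0.56 among the 3 watered groups, 0.50 between watered and stressed atx1, and -0.27 between stressed atx1 and stressed wild type. Hybridization controls were higher on replicate 1 in 6 of 6 groups. An effect shared by some arrays of the same replicate number is therefore possible, and a shared batch among some arrays was not tested beyond the block. With the replicate block the tubulins called lower under water deficit numbered 0 for atx1, 2 for MYO-OX and 3 for wild type, and 4 were higher and 1 lower in stressed atx1 than in stressed wild type, so the block changed no tubulin call, and the count over all probe sets in wild type was 5431 in place of 4466.

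With only the arrays of the comparison 0 tubulins were called lower in MYO-OX. With the hybridization covariate 3 were called higher and 0 lower in atx1 against wild type under water deficit, and with the GAPDH covariate 0 were called higher and 0 lower there and 1 was called higher in the MYO-OX response. With 1 array left out, the tubulins called lower ranged from 1 to 4 in the wild-type response and from 1 to 3 in the MYO-OX response, with 0 to 1 called higher in MYO-OX. Those called in atx1 against wild type under water deficit ranged from 0 to 4 higher and 0 to 1 lower, and those called lower in watered MYO-OX from 0 to 1. Over all probe sets, the median difference of atx1 minus wild type under water deficit was 0.01 as reported and -0.22 after median centring (0.12 for the wild-type response, 0.15 for MYO-OX and -0.15 for the atx1 response minus that of wild type), and the 4 higher and 1 lower tubulin calls stood after it. Counts over all probe sets ranged from 681 to 3131 higher and 760 to 3348 lower in wild type, 553 to 3928 higher and 623 to 4374 lower in MYO-OX, 0 to 2153 higher and 0 to 1755 lower in atx1, 311 to 2480 higher and 193 to 1628 lower in atx1 against wild type under water deficit, and 0 to 157 higher and 0 to 253 lower in watered MYO-OX against watered wild type. Except in watered MYO-OX against watered wild type, the lowest counts came with fewer arrays in the fit. The highest counts in that comparison also came with 1 array left out, as did the highest count called higher in atx1 against wild type under water deficit. The cause of the moves was not tested.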

Other observations

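The spread between replicates of the tubulins differed from group to group. The median absolute difference between the 2 arrays was 1.03 over the 7 tubulins in atx1 under water deficit, against 0.27 over all probe sets, and 0.90 in watered MYO-OX, against 0.42. In wild type under water deficit it was 0.34, against 0.18 over all probe sets, and in watered wild type 0.22, against 0.22. It was 0.36 in watered atx1, against 0.28, and 0.14 in MYO-OX under water deficit, against 0.29. In atx1 under water deficit TUB1 was 1.66 lower on replicate 2 than on replicate 1 and TUB5 was 1.40 lower, while in watered MYO-OX TUB5 was 1.82 higher and TUB6 1.72 higher on replicate 2.

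TRY, for a repressor of trichome fate and the 1 measured gene of 5 trichome markers sought, fell by 1.66 under water deficit in wild type (limma adjusted p = 0.0379), a call that held in 12 of 20 alternatives. FAMA, the guard cell transcription factor gene, fell by 0.97 in wild type (limma adjusted p = 0.00404) and by 0.74 in MYO-OX (limma adjusted p = 0.011). MUTE and SPCH, which act earlier in the stomatal lineage, did not pass in any response.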
